A study of Mus musculus with 12 samples.

Results

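TGF-beta ligands, their receptors, the Smads that carry and brake the signal, and 2 related genes were followed in the mouse cervix after treatment with a progestin. The members were the 10 genes Tgfb1, Tgfb2, Tgfb3, Tgfbr1, Tgfbr2, Tgfbr3, Tgfbi, Smad3, Smad7 and Inhba, found on the array by their gene symbols, out of 18194 genes with a probe set on the array. All 10 had probe sets, 26 in all. Of the genes, 8, among 8795 genes kept in all, exceeded 4 on the log2 scale in 6 or more arrays and entered the test. Tgfb1 and Smad7 did not.

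Cervical RNA of outbred CD1 mice at gestation day 15 was measured. In one group dams had received medroxyprogesterone acetate (MPA), a synthetic progestin, as 1 mg per dam under the skin for 48 h (6 arrays). In the other group they had received the same volume of ethanol, the vehicle (6 arrays). The labels do not say whether day 15 was the day of injection or of collection, or whether arrays stand for separate dams; the p-values therefore describe sample-to-sample spread alone, part of which may be technical.

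As background, TGF-beta ligands are secreted in a latent form bound to matrix proteins and act, once released, on a pair of receptor kinases, Tgfbr2 and Tgfbr1. The receptors phosphorylate Smad2 and Smad3, which enter the nucleus with Smad4, and Smad7 is induced as a brake on the receptors. The pathway is known for driving collagen and elastic fibre synthesis in fibroblasts, the matrix that gives the cervix its strength in pregnancy. Activin A, a dimer of the Inhba product, belongs to the same ligand family and signals through its own receptors to the same Smads.

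Markers of cell types that the tissue can hold were measured, which does not by itself identify it as cervix. Of the markers listed, 9 of 9 of stromal fibroblasts, 7 of 7 of smooth muscle, 7 of 9 of stratified epithelium, 7 of 7 of columnar epithelium and 6 of 7 of the female reproductive tract were kept by the filter, as were 7 of 9 of macrophages and monocytes and 6 of 8 of skeletal muscle. Of 7 endothelial markers, Tek alone was kept. Of the 6 skeletal muscle markers kept, 5 were lower in MPA and 1 higher, with a median log2 difference of -1.05. Differences ran from -2.42 (SE 0.76) for Myh3 to 0.04 (SE 0.37) for Tnnt3. An unadjusted p under 0.05 (limma) was found for 3 of the 6, and 0 had an adjusted p under 0.05. Centred over all arrays, the skeletal muscle mean stood at 2.27 in vehicle 1, against -1.26 to 0.65 in the others. MPA 2 stood apart from the other arrays. Its mean over the fibroblast markers was 8.49, against 10.27 to 10.95 in the other MPA arrays and 9.28 to 10.65 in vehicle. The arrays were washed on 3 fluidics stations, and only station 2 held both groups (MPA 1, MPA 2, vehicle 5 and vehicle 6).

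The comparison of MPA with vehicle asks whether genes of TGF-beta signalling respond to a progestin in the pregnant cervix. None of the 8 genes tested passed. Smad3, the receptor-activated Smad, had the smallest p, with a level 0.824 times that of vehicle, and Tgfb2, a ligand, differed so much between arrays of the same group that the interval of its difference reached from 0.554 to 4.03 times the vehicle level. At an adjusted p under 0.05 (limma, Benjamini-Hochberg over all 8795 genes), 0 of 8 members were called, where 0.0114% of all genes were called. At an unadjusted p under 0.05 there was 1 of 8, Smad3, where 5% of all genes passed. The groups did not overlap for 0 of 8 members, against 0.341% of all genes. Of the 8, 5 were higher in MPA and 3 lower, with a median log2 difference of 0.16 (0.02 over all genes tested). Values of different genes come from different probe sets and are not set against each other.

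**Figure D1:**
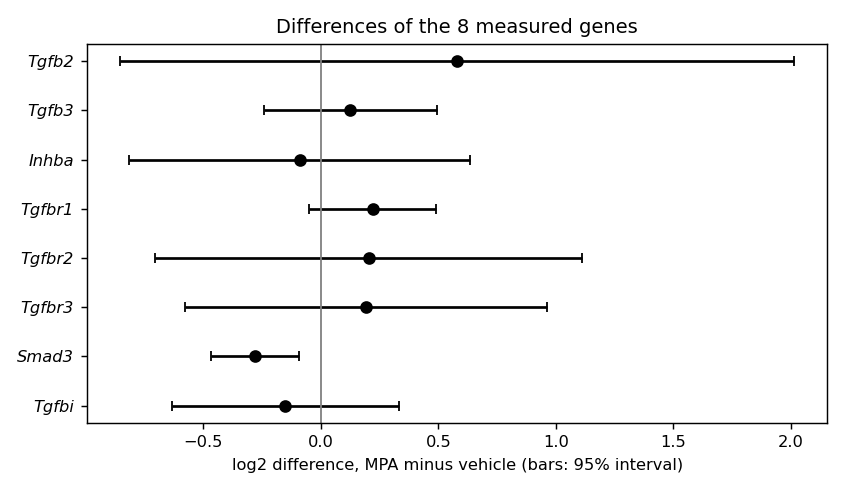
The log2 difference, MPA minus vehicle, of the 8 genes tested is on the x axis, 1 gene per line, with bars for the 95% interval from limma (6 arrays per group). The interval of Smad3 (-0.47 to -0.09) lies below 0 and those of the other 7 genes span it; that of Tgfb2 is the widest, from -0.85 to 2.01.

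Among the ligands, Tgfb2, which in mice is needed for the development of many organs, was carried by 4 probe sets. The brightest had log2 values of 8.49 (lowest), 11.19 (median) and 11.92 (highest) in MPA, against 8.93, 10.32 and 11.84 in vehicle. The groups covered almost the same range, and the lowest and the highest MPA array, MPA 2 and MPA 3, were 10.7-fold apart. Within vehicle the span was 7.49-fold, between vehicle 5 and vehicle 1. The spread within groups (SD 1.26 on the log2 scale) was larger than that of 99.0% of the genes tested. The log2 difference was 0.58 (SE 0.66, 95% interval -0.85 to 2.01, adjusted p = 1.00), with means of 10.91 ± 1.27 in MPA and 10.33 ± 1.25 in vehicle (SD, n = 6 each). Without MPA 2 it was 1.06 (adjusted p = 0.495), and without vehicle 5 it was 0.30. Within station 2, where Tgfb2 stood at 10.76 and 8.49 in MPA and at 8.93 and 9.84 in vehicle, the difference was 0.24 (SE 0.89).

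The low and high arrays were the same in all Tgfb2 probe sets. MPA 2 was the lowest MPA array in each, and vehicle 4 and vehicle 5 were the lowest vehicle arrays in each. Between the 4 probe sets, Pearson's r over the 12 arrays ran from 0.983 to 0.995, given as a description since the probe sets read the same RNA. In the 3 dimmer probe sets the difference was 0.54 (SE 0.76), 0.80 (SE 0.88) and 0.44 (SE 0.67).

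**Figure D2:**
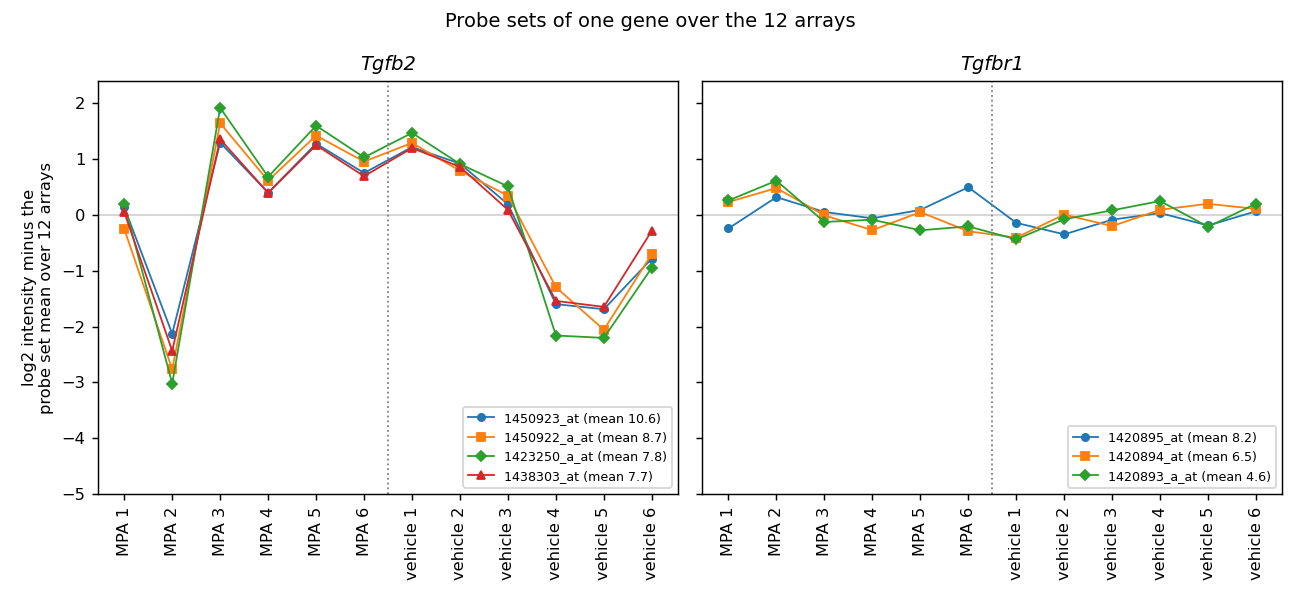
Log2 intensity of each probe set, minus its own mean over the 12 arrays, is plotted for Tgfb2 (left, 4 probe sets) and Tgfbr1 (right, 3 probe sets) in every array, MPA before vehicle. The Tgfb2 lines run together, whereas the brightest Tgfbr1 probe set departs from the other 2.

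The promoter of Tgfb2 is shown because this gene and Tgfbr2, below, varied together over the arrays (r = 0.807). Tgfbr3 varied with Tgfbr2 more closely (r = 0.900), but Tgfb3, Tgfbr3 and Smad7 had no promoter entry in the reference used. The sequences are the 250 bases before the annotated start of transcription, from RefSeq (GRCm38.p6), 5′ to 3′ on the strand of the gene. Tgfb2 lies on the minus strand at chr1:186705990-186706239 and Tgfbr2 on the minus strand at chr9:116175364-116175613. Capitals mark matches to any of 7 motifs searched: TATAAA (core promoter element, given strand), and on both strands TGACGTCA (cAMP response element), CACGTG (E-box), GTCTAGAC (Smad binding element), CAGACA (short Smad element), AGAACA (steroid receptor half-site) and GGGCGG (GC box). No match overlapped another.
Tgfb2: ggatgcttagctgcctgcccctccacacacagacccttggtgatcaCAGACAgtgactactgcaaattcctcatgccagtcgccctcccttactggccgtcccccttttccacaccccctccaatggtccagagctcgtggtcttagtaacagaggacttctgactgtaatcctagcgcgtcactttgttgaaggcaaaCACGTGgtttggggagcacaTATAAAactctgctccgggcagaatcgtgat
Tgfbr2: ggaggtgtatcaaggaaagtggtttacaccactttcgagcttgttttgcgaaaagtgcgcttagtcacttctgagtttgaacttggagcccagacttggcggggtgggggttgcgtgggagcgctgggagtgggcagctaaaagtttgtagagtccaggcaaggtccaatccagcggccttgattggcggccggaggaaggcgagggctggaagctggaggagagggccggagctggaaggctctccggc
The Tgfb2 window held the core promoter element that begins 31 bases before the start, an E-box that begins 51 bases before it and a short Smad element that begins 204 bases before it. Of 32851 promoter windows of the same length, 7.59% held the core promoter element, 6.02% the E-box and 17.1% the short Smad element. The Tgfbr2 window held none of the 7 motifs. The steroid receptor half-site, in 16.1% of all windows, was in none of the windows of the 7 members with a promoter in the table. A match is a run of letters and not a measured site.

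Tgfb3, the isoform best known for its part in palate closure, had 1 probe set. Its log2 values were 6.77, 7.44 and 7.89 (lowest, median, highest) in MPA, against 7.09, 7.18 and 7.46 in vehicle. In MPA, 3 of 6 arrays lay above every vehicle array and 2 of 6 below every one, so MPA values surrounded those of vehicle. The difference was 0.13 (SE 0.17, adjusted p = 1.00). The SD was 0.42 in MPA and 0.14 in vehicle, 2.97 times as large in MPA, and 2.53 times without MPA 2; this ratio was not tested. Within station 2 the difference was 0.57 (SE 0.19, adjusted p = 0.840), and without MPA 2 it was 0.015.

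Inhba, which encodes the beta A subunit of activin and inhibin, was dim. Its log2 values were 3.76, 4.41 and 5.55 (lowest, median, highest) in MPA, against 3.76, 4.68 and 5.39 in vehicle, and 4 of 6 arrays in each group were above 4. The groups covered the same range. The difference was -0.09 (SE 0.33, adjusted p = 1.00). Its sign turned without MPA 2 (0.05), MPA 6 (0.00031) or vehicle 6 (0.08), and within station 2 the difference was -0.89 (SE 0.41, adjusted p = 0.840). A second Inhba probe set was above 4 on 0 arrays.

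Tgfb1, the isoform most studied in fibrosis, lay near the bottom of the scale. Its brighter probe set ran from 2.35 to 2.46 in MPA and from 2.35 to 2.68 in vehicle, where the lowest log2 value in the whole table was 2.13. Of all probe sets on the array, 29.3% had a lower mean. The values of Tgfb1 carry no usable order at this level, and no difference was tested; they say how these probe sets behaved and do not show that the transcript was missing.

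**Figure D3:**
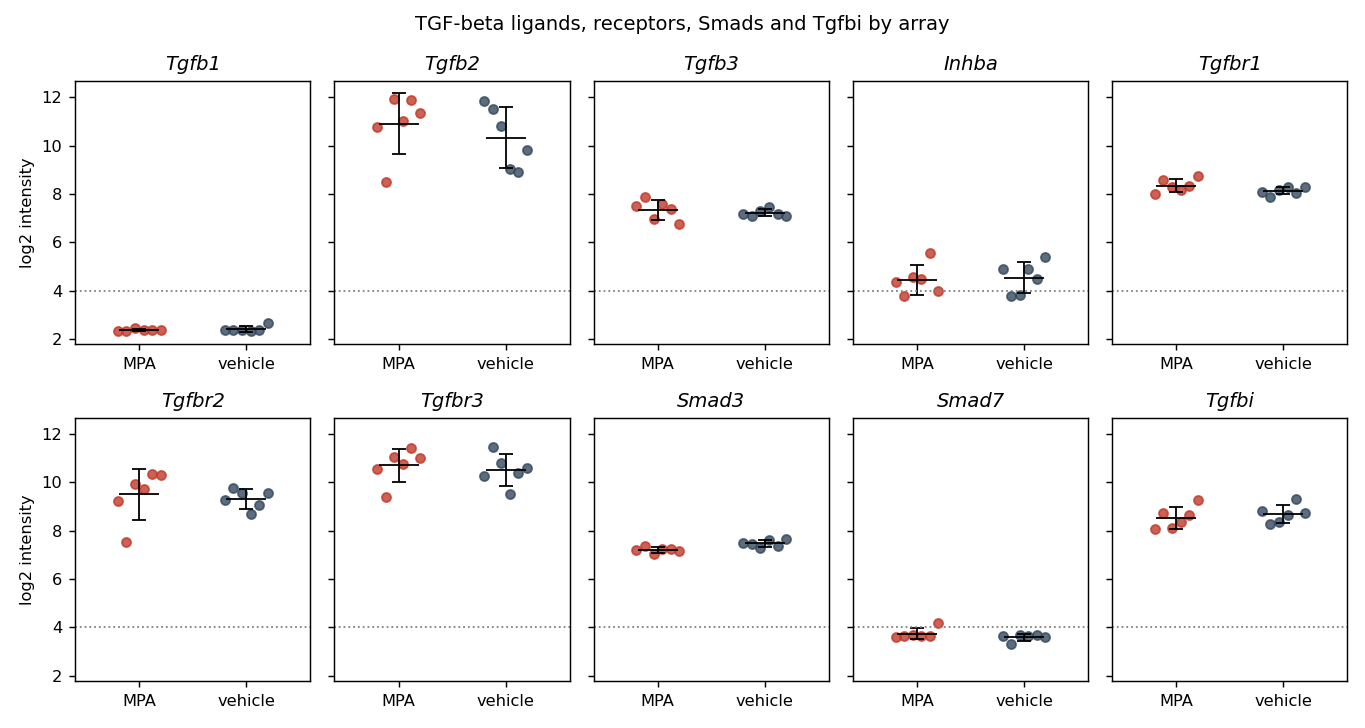
Log2 intensity of the 10 genes (y axis) is shown for each array, with MPA on the left and vehicle on the right of each panel (6 points each, in replicate order); the cross bar is the mean, the whisker the SD and the dotted line the log2 value of 4 used as filter. Tgfb2, Tgfbr2 and Tgfbr3 spread widely within groups, MPA 2 is the lowest point of each of these genes in MPA, Smad3 is narrow, and Tgfb1 lies near the bottom in both groups.

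The receptors were all measured. Tgfbr2, the type 2 receptor that binds ligand first, had log2 values of 7.54, 9.82 and 10.36 (lowest, median, highest) in MPA, against 8.67, 9.40 and 9.76 in vehicle. MPA held both the lowest array (MPA 2) and 3 arrays above every vehicle array. The difference was 0.20 (SE 0.42, 95% interval -0.70 to 1.11, adjusted p = 1.00). It was 0.60 without MPA 2 (adjusted p = 0.467) and 0.034 without MPA 5. Within station 2, which holds MPA 2, the direction turned to -0.93 (SE 0.66, adjusted p = 0.840). The SD was 1.05 in MPA and 0.40 in vehicle, but without MPA 2 the SD of MPA was 0.46. A dimmer probe set, above 4 on 10 arrays, differed by 0.23 (SE 0.16). It followed the brightest loosely, with r = 0.503 over the 12 arrays. Another was above 4 on 0 arrays. The relations of Tgfbr2 with other genes and markers, given below, rest on the brightest probe set.

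Tgfbr3, betaglycan, is a co-receptor that presents ligand, Tgfb2 above all, to the signalling receptors. Its log2 values were 9.41, 10.88 and 11.44 (lowest, median, highest) in MPA, against 9.53, 10.49 and 11.48 in vehicle. The groups covered the same range, with MPA 2 and vehicle 4 the lowest of their groups. The difference was 0.19 (SE 0.35, adjusted p = 1.00), and 0.22 (SE 0.41) in the second probe set, which followed the first with r = 0.938 over the 12 arrays. Without vehicle 4 it was -0.0037, without MPA 2 it was 0.45, and within station 2 it was -0.51 (SE 0.43, adjusted p = 0.840).

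Tgfbr1, the type 1 receptor kinase that phosphorylates Smad2 and Smad3, had log2 values of 7.999, 8.31 and 8.74 (lowest, median, highest) in MPA, against 7.89, 8.13 and 8.31 in vehicle. In MPA, 3 of 6 arrays lay above every vehicle array. The difference was 0.22 (SE 0.12, unadjusted p = 0.102, adjusted p = 1.00). The other probe sets did not follow the brightest one. Its r with them was 0.027 and 0.20, whereas those 2 had r = 0.721 with each other (12 arrays). Their differences were 0.065 (SE 0.15) and 0.062 (SE 0.17), so the value of 0.22 rests on 1 probe set of 3.

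Smad3, the Smad that binds DNA after receptor activation, was the member with the smallest p. Its log2 values were 7.03, 7.21 and 7.35 (lowest, median, highest) in MPA, against 7.30, 7.47 and 7.66 in vehicle. All 6 MPA arrays lay below the vehicle mean and 5 of 6 lay below every vehicle array; MPA 2, at 7.35, was the exception. The mean was 7.20 ± 0.11 in MPA and 7.48 ± 0.15 in vehicle (SD, n = 6 each), a log2 difference of -0.28 (SE 0.09, 95% interval -0.47 to -0.09), or 0.824 times the vehicle level. The unadjusted p was 0.00664, rank 62 of 8795, and the adjusted p was 0.863, so Smad3 did not pass; over the alternatives the adjusted p ran from 0.431 to 1.00. Its spread within groups, 0.13, was small: 10.1% of genes had a smaller one.

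Over the 12 fits that each leave out 1 array, the Smad3 difference ran from -0.32 to -0.24, and within station 2 it was -0.24 (SE 0.18, adjusted p = 0.840). It was -0.27 (SE 0.08, adjusted p = 0.558) with the fibroblast marker mean as a covariate, a fit added after seeing the data. The 2 other Smad3 probe sets were dim: one was above 4 on 1 array and differed by 0.035 (SE 0.22), and the other was above 4 on 0 arrays. Of the macrophage and monocyte markers, all 7 measured were higher in MPA, where 4951 of all 8795 genes were. An unadjusted p under 0.05 was found for 4 of the 7, against 5% of all genes, and none passed. Their mean lay at 6.74 to 7.89 in MPA and at 6.42 to 7.04 in vehicle, and their summed intensity at 974.9 to 2525 in MPA and at 911 to 1444 in vehicle, with Cd68 and Adgre1 not kept. All 7 stratified epithelial markers measured were lower in MPA, 1 with an unadjusted p under 0.05 and none past the test. Their mean was 8.17 to 10.47 in MPA and 9.86 to 10.48 in vehicle, and the 8.17 was MPA 5. Centred over the 12 arrays, the mean of MPA 5 was -1.86. The other MPA arrays lay at -0.23 to 0.44 and vehicle at -0.17 to 0.45. Summed intensity ran from 6698 to 24782 in MPA and from 15178 to 23221 in vehicle. Lor, a marker of the cornified layer, was below the filter and Dsg3 was not matched to a probe set. Other lists were one-sided too. All 9 fibroblast and all 7 smooth muscle markers were higher in MPA, 0 of them with an unadjusted p under 0.05. A shared direction within a list is thus not particular to macrophage or epithelial markers. Over the 12 arrays Smad3 ran against the macrophage mean with r = -0.584 (permutation p = 0.0467, adjusted p = 0.175) and rho = -0.720 (permutation p = 0.0109, adjusted p = 0.0546), which did not pass over the 60 relations described below. This r was -0.707 without vehicle 4 and vehicle 6, -0.411 within MPA and 0.151 within vehicle. With the epithelial mean r was 0.316 (permutation p = 0.332, adjusted p = 0.604). No fit of the Smad3 difference with either marker mean as a covariate was made. In bulk tissue, fewer cells of a type and less RNA per cell cannot be told apart.

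The Smad3 promoter is printed because Smad3 was the member whose difference stood out most from its spread. It lies on the minus strand at chr9:63757995-63758244 (RefSeq, GRCm38.p6), with capitals for the same motifs as above.
Smad3: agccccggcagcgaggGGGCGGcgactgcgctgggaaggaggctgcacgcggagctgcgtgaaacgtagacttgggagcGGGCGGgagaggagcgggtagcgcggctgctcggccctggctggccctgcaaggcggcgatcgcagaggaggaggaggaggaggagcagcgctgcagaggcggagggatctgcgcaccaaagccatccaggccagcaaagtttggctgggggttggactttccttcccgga
It held the GC box at 2 places, beginning 234 and 171 bases before the start, and none of the other motifs; 32.7% of all windows held a GC box. Its content of G and C was 69.2%, against 53.6% in Tgfb2 and 58.4% in Tgfbr2.

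Smad7, the inhibitory Smad that feeds back on the receptors, did not pass the filter. Its brighter probe set ran from 3.61 to 4.19 in MPA, where MPA 6 alone was above 4, and from 3.302 to 3.66 in vehicle, where 0 arrays were. No difference was tested. Tgfbi, a secreted matrix protein first found as a gene induced by TGF-beta, had log2 values of 8.08, 8.52 and 9.27 (lowest, median, highest) in MPA, against 8.27, 8.70 and 9.32 in vehicle. The groups overlapped over nearly their whole range, with a difference of -0.15 (SE 0.22, adjusted p = 1.00). Its 3 other probe sets differed by -0.12 (SE 0.17), -0.025 (SE 0.21) and -0.031 (SE 0.24). Within station 2 the Tgfbi difference was -0.62 (SE 0.34, adjusted p = 0.840).

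Tgfb2, Tgfbr2 and Tgfbr3 varied together over the 12 arrays, and with them the fibroblast markers. Over all genes tested, the largest axis of variation (first principal component) held 48.5% of the variance. On it MPA 2 (-57.3) and vehicle 4 (-32.0) lay at one end and MPA 5 (41.5) at the other. The share of all genes that ran with the fibroblast mean as closely was not computed. The relation is thus not shown to be particular to these 3 genes. To describe the members, 60 relations were computed, the 28 pairs of the 8 members and each member against the mean of 4 marker lists, with two-sided permutation p-values from 100000 draws. The marker lists share genes with the pathway lists described below. Col1a1, Col1a2 and Col3a1 of the fibroblast list and Acta2, Tagln and Cnn1 of the smooth muscle list are also textbook TGF-beta targets. Dcn of the fibroblast list is also in the latency list. Of the relations, 9 of 60 had an adjusted p under 0.05 for Pearson's r, and all 9 joined Tgfb2, Tgfbr2 and Tgfbr3 with each other or with fibroblast or smooth muscle markers. By Spearman's rho, Tgfbr3 also ran against the stratified epithelial mean (rho = -0.846, permutation p = 0.00102, adjusted p = 0.0153), where r was -0.645 (permutation p = 0.0165, adjusted p = 0.0794), and -0.728 without MPA 2 and vehicle 4. Tgfbr2 followed the fibroblast mean with r = 0.979 (permutation p = 1e-05, the smallest the draws can give, adjusted p = 3e-04) and rho = 0.972 (permutation p = 1e-05). The relation was r = 0.958 without MPA 2 and vehicle 4, the arrays farthest from the median of Tgfbr2, and it was 0.990 within MPA and 0.975 within vehicle.

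Tgfbr3 followed the same mean with r = 0.941 (permutation p = 1e-05, adjusted p = 3e-04) and rho = 0.944 (permutation p = 2e-05), and r was 0.907 without MPA 2 and vehicle 4. Tgfb2 did so less tightly, with r = 0.804 (permutation p = 0.00107, adjusted p = 0.00917) and rho = 0.741 (permutation p = 0.0078, adjusted p = 0.0527); r was 0.731 without MPA 2 and vehicle 5, 0.977 within MPA and 0.579 within vehicle. Between the receptors, Tgfbr2 and Tgfbr3 had r = 0.900 (permutation p = 6e-05, adjusted p = 9e-04), with rho = 0.909 (permutation p = 1.4e-04, adjusted p = 0.0028), and r was 0.801 without MPA 2 and vehicle 4. Tgfb2 had r = 0.807 with Tgfbr2 (permutation p = 5.7e-04, adjusted p = 0.0057) and 0.793 with Tgfbr3 (permutation p = 0.00209, adjusted p = 0.0155). By rank these were rho = 0.818 (permutation p = 0.00188, adjusted p = 0.0188) and rho = 0.734 (permutation p = 0.00856, adjusted p = 0.0527), and the second did not pass. Without MPA 2 and vehicle 5 these were 0.690 and 0.727. No fluidics station had enough arrays (6 are needed) for the correlation to be repeated inside it.

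The smooth muscle mean gave r = 0.897 with Tgfbr3, 0.924 with Tgfbr2 and 0.774 with Tgfb2 (adjusted permutation p of 4e-04, 0.00132 and 0.0155). By rank rho was 0.825, 0.762 and 0.629 (adjusted permutation p of 0.0188, 0.047 and 0.124), so that Tgfb2 did not pass. These 3 r were 0.776, 0.695 and 0.574 without the 2 farthest arrays. Tgfb3 had the opposite sign to Tgfbr2, with r = -0.708 (permutation p = 0.0104, adjusted p = 0.0625), which did not pass. It was -0.223 without MPA 2 and MPA 6, -0.769 within MPA and -0.729 within vehicle. Smad3 did not follow the fibroblast mean in a way that passed (r = -0.415, permutation p = 0.178, adjusted p = 0.395). The summed intensity of the 9 fibroblast markers ran from 12398 to 38835 in MPA and from 17395 to 31748 in vehicle. With the fibroblast mean as a covariate the Tgfbr2 difference was 0.035 (SE 0.10), that of Tgfbr3 0.06 (SE 0.13) and that of Tgfb2 0.36 (SE 0.40). The SE of the Tgfbr2 difference was 0.42 without the covariate.

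**Figure D4:**
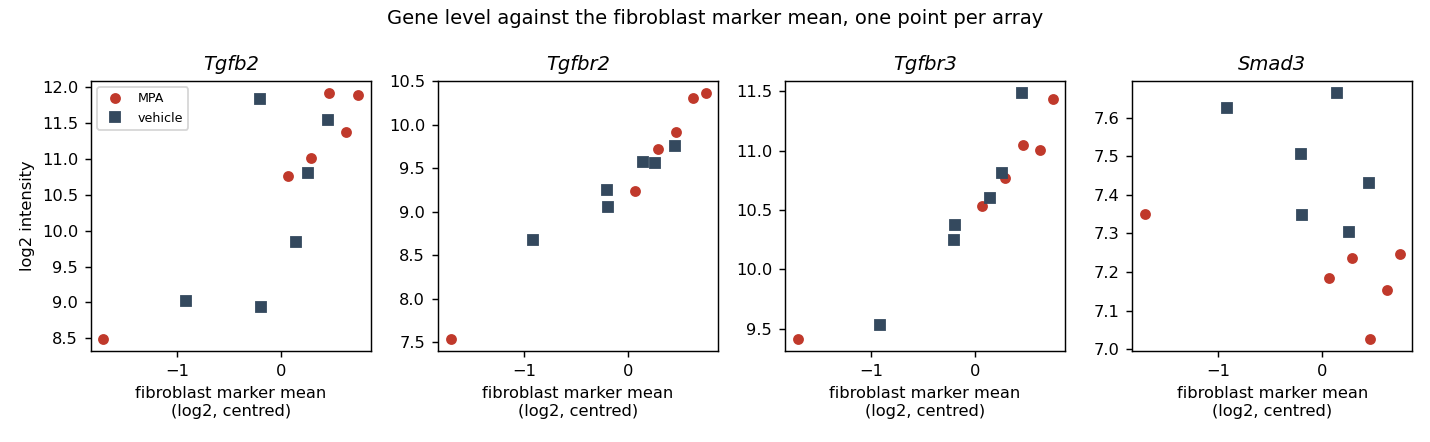
Log2 intensity (y axis, a scale of its own in each panel) of Tgfb2, Tgfbr2, Tgfbr3 and Smad3 is plotted against the mean log2 value of 9 fibroblast markers, centred over the 12 arrays (x axis), with 1 point per array. Tgfbr2 and Tgfbr3 climb along a line shared by MPA (circles) and vehicle (squares), with MPA 2 at the lower left, Tgfb2 scatters more, and most Smad3 points of MPA lie under those of vehicle at a like marker mean.

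The genes most like each member were found by Pearson's r over the 12 arrays after centring each group on its own mean, among the genes tested, leaving out the members; these values are descriptions. Tgfb2 was closest to Nptx1, a neuronal pentraxin (r = 0.993), Ntn1, the guidance cue netrin 1 (0.983) and Cys1 (0.983). Tgfbr2 was closest to Nid1, the basement membrane protein nidogen 1 (r = 0.988), Ogn, the small proteoglycan osteoglycin (0.988), and Tpm2, a tropomyosin (0.987). Tgfbr3 was closest to Kcnma1, the large-conductance calcium-activated potassium channel (r = 0.978), Entpd1 (0.978) and Ccdc141 (0.977). Inhba was closest to Tnc, the matrix protein tenascin C (r = 0.883), and Col8a1, a collagen chain (0.872). The closest gene was Rps26, a ribosomal protein, for Tgfb3 (r = 0.943), Mterf3 for Tgfbr1 (0.931), Sema6d for Tgfbi (0.923) and Cog2 for Smad3 (0.878). The Tgfbr1 value rests on its brightest probe set, which the other Tgfbr1 probe sets did not follow.

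The wider pathway was read from 5 lists of genes that are no members. None of their 61 measured genes passed over all genes. Over all 8795 genes, 4951 were higher in MPA and 3844 lower, 5% had an unadjusted p under 0.05, and 0.341% had groups that did not overlap; with 5 to 25 genes a list, the counts below are descriptions. Of 13 measured genes of ligand latency and activation, 7 were higher in MPA and 6 lower, with a median of 0.051, and 3 had an unadjusted p under 0.05. Ltbp1, which tethers latent TGF-beta to the matrix, had 9.31, 9.36 and 9.77 (lowest, median, highest) in MPA, against 8.66, 8.96 and 9.32 in vehicle, a log2 difference of 0.49 (SE 0.12, adjusted p = 0.770). The groups met at one point, where vehicle 3 (9.32) lay just above MPA 4 and MPA 6 (both 9.31). Furin, the protease that cleaves TGF-beta precursors, had -0.19 (SE 0.07, adjusted p = 0.955) with 8.002 ± 0.065 in MPA and 8.19 ± 0.11 in vehicle (SD, n = 6 each). Emilin1, an elastic fibre protein that restrains TGF-beta processing, had 0.42 (SE 0.19) and the integrin subunit Itgb5 0.20 (SE 0.15). Within station 2 these last 2 turned to -0.034 and -0.043.

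Of 5 measured activin and inhibin genes, 3 were higher in MPA and 2 lower (median 0.00051), and 1 had an unadjusted p under 0.05. Acvr1b, the type 1 activin receptor, had 5.65, 5.98 and 6.18 (lowest, median, highest) in MPA, against 6.15, 6.26 and 6.54 in vehicle, a difference of -0.32 (SE 0.10, unadjusted p = 0.00726, adjusted p = 0.863). MPA 1, at 6.18, was the array that met the vehicle range. Within station 2 its difference was -0.11. Fst, follistatin, which binds and blocks activin, had 0.52 (SE 0.86) and Inhbb, the beta B subunit, -0.21 (SE 0.63). Both turned: Fst to -1.20 within station 2, where MPA 2 read 2.69, and Inhbb to 0.36 without MPA 2. Fstl3, a follistatin relative, had 0.016 (SE 0.16), below its error and of either sign across the alternatives.

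Other receptors and co-receptors gave 3 of 5 higher and 2 lower (median 0.028), none with an unadjusted p under 0.05. Bmpr2, the type 2 BMP receptor, had -0.14 (SE 0.07), Bmpr1b 0.34 (SE 0.23), the endothelial type 1 receptor Acvrl1 0.46 (SE 0.32) and Acvr1 -0.027 (SE 0.08), each with an adjusted p of 1.00. Among 13 measured Smads, adaptors and feedback genes, 6 were higher and 7 lower (median -0.0049), and none had an unadjusted p under 0.05. Ski, a repressor of Smad complexes, had 0.16 (SE 0.12), and its relative Skil, itself a TGF-beta target, -0.20 (SE 0.17). Pmepa1, which sequesters receptor Smads, had -0.18 (SE 0.16) and the ubiquitin ligase Smurf1 -0.25 (SE 0.24), which was 0.11 within station 2. The other Smads of the signal, Smad2 and Smad4, had differences of -0.0049 (SE 0.11) and 0.033 (SE 0.12).

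Of 25 measured textbook targets of TGF-beta, 14 were higher in MPA and 11 lower (median 0.10), and 2 had an unadjusted p under 0.05, both lower. Has2, the hyaluronan synthase, was the one target whose groups did not overlap, with 6.598 to 8.75 in MPA and 8.84 to 10.26 in vehicle, and its difference of -1.58 (SE 0.35) did not pass (adjusted p = 0.592). Cdkn2b, the cell cycle inhibitor p15 that TGF-beta induces in epithelial cells, had 5.83, 6.42 and 6.65 (lowest, median, highest) in MPA, against 6.56, 6.81 and 7.74 in vehicle. Its difference was -0.59 (SE 0.20, adjusted p = 0.897), and -0.44 without vehicle 4. Over all alternatives run it lay between -0.67 and -0.26, with an unadjusted p of up to 0.48 (limma). Bhlhe40, a transcription factor, had -0.34 (SE 0.18) and the cell cycle inhibitor Cdkn1a -0.35 (SE 0.25).

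**Figure D5:**
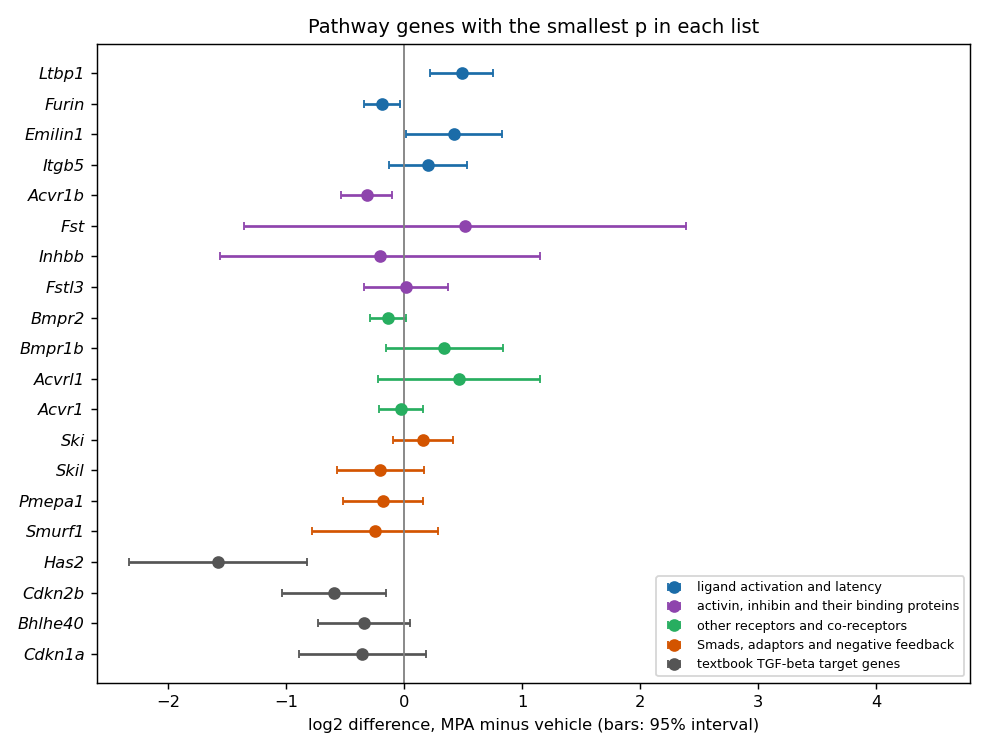
The log2 difference, MPA minus vehicle, with its 95% interval (limma, 6 arrays per group), is shown for the 4 genes with the smallest p in each of 5 lists, coloured by list. Intervals of Ltbp1 (0.49) and Emilin1 (0.42) lie above 0 and those of Furin, Acvr1b, Has2 and Cdkn2b below it, none of which passed over all genes; Fst and Inhbb have the widest.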

How the data were processed

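Groups and replicate numbers came from the sample titles. The deposited table holds intensity on a linear scale for 45101 probe sets of the Affymetrix Mouse430_2 array, made by the authors with GCRMA per the submitters' processing notes (version: not given in the sources used here). Its linear scale was judged by the values' range. GCRMA compresses dim values. Scan files were not analysed here; of the instrument's deposited text records the fluidics station alone was read. Log2 was taken with no pseudocount. The platform annotation gave 34958 probe sets 1 symbol, 932 several and 9211 none. Of the first, 34754 matched RefSeq (GRCm38.p6, names only). Each gene is read from the probe set of highest mean (12 arrays); 8795 of 18194 genes exceeded 4 (log2) in 6 or more arrays. MPA and vehicle were compared by limma 3.58.1 (lmFit, eBayes, R 4.3.3) without covariates, with Benjamini-Hochberg adjustment; differences are MPA minus vehicle with the moderated SE. The fit was run on simulated data in which each gene was drawn independently. That run does not cover variation that genes share over the arrays. The number of arrays limits the precision.

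The members and lists were chosen with earlier results of these data known. All members are named, from each list the 4 genes with the smallest p where none was called, and 3 genes most like each member, of which the text gives the closest; other genes named were chosen after their values were seen. Alternatives changed the filter, how probe sets were summarised, the normalization, array weights, the variance model, pseudocount, replicate block, station and arrays. The fibroblast covariate was chosen after the data were seen. Plots: matplotlib 3.10.9.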

Additional observations from a re-analysis of the deposited data

Results flagged for a closer look

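In 60 groups of 6 arrays (10 members and 20 pathway genes, MPA and vehicle), 10 held a single array set apart from the other 5 by Dixon's test at the 95% level; chance flags about 1 group in 20, and genes share arrays. Tgfb2 stood at 8.49 in MPA 2, against 10.76 to 11.92 in the other MPA arrays. MPA 2 was also lowest for Inhbb (5.99, others 8.63 to 10.11) and highest for Bmpr1b (5.55, others 4.27 to 4.74). Has2 stood at 6.598 in MPA 5, against 8.16 to 8.75 in the others. Smad7 stood at 4.19 in MPA 6 (others 3.61 to 3.67) and at 3.302 in vehicle 2 (others 3.61 to 3.66). Acvr1b was 6.54 (others 6.15 to 6.27) and Emilin1 4.17 (others 4.38 to 4.47) in vehicle 1. Tgfb1 was 2.46 in MPA 3 (others 2.35) and 2.68 in vehicle 6 (others 2.35 to 2.36), values near the bottom of the table.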

How the results depend on the processing

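No member passed under any of the alternatives run (0 of 197 values over 8 members, the fibroblast covariate included), and 188 of the 197 kept their sign. The 1 gene called over all genes was lost (0 called) without the filter, with the replicate block, within station 2 and without MPA 2 and MPA 5, and the count ran from 0 to 1 (1 without vehicle 1 alone) with each array left out. No sign was seen that the replicate numbers pair the arrays: deviations of same-numbered arrays had r from -0.60 to 0.047, and 0 of 6 MPA arrays matched best the vehicle array of their number. This check reads all genes at once and could miss a small shared part. With the replicate block the Smad3 difference was -0.28 (adjusted p = 1.00).

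Signs turned within station 2, and equally with the station as a block, which gives the same difference, for Tgfbr2 (-0.93), Tgfbr3 (-0.51), Emilin1 (-0.034), Itgb5 (-0.043), Fst (-1.20), Fstl3 (-0.13) and Smurf1 (0.11). Without MPA 2 and MPA 5 they turned for Tgfb3 (-0.018) and Inhbb (0.20), with the median of probe sets for Acvr1 (0.063), and for Fstl3 with arrays centred on their median (-0.0075) or the fibroblast covariate (-0.0038). The cause was not tested. With each array left out, differences ran from -0.0037 (without vehicle 4) to 0.45 for Tgfbr3, from -0.31 to 0.082 for Inhba, from -0.46 to 0.36 (without MPA 2) for Inhbb, from -0.080 to 0.10 for Fstl3 and from -0.061 to 0.018 for Acvr1. The Smad3 difference lay between -0.33 and -0.24 over the 24 settings that kept its probe set; the median of probe sets is dim and did not pass the filter. No setting moved the median of all genes by over 0.1.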

Other observations

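Of the activin genes, Fst and Inhbb varied widely between arrays of the same group, and Acvr1b, with a spread larger than that of 20.02% of genes, did not. Fst, the activin antagonist, ran from 2.69 in MPA 2 to 8.34 in MPA 5, and from 4.31 in vehicle 5 to 7.09 in vehicle 2. The 2.69 lies below the median log2 value of all probe sets (2.75), so the Fst span and spread lean on a value near the bottom of the scale. Inhbb ran from 5.99 in MPA 2 to 10.11 in MPA 6, and from 7.85 in vehicle 4 to 9.71 in vehicle 6. Their spread within groups was larger than that of 99.6% and 98.6% of the genes tested. Of the members, Tgfb2 (99.0%), Tgfbr2 (94.3%), Tgfbr3 (91.6%) and Inhba (90.6%) lay in the same upper part, Inhba from a dim probe set. Tgfbi (79.0%) and Tgfb3 (64.8%) lay between these and Tgfbr1 (40.2%) and Smad3 (10.1%). With the fibroblast mean as a covariate, the Fst difference was 0.19 (SE 0.36, against 0.86 without the covariate). The Inhbb difference was -0.45 (SE 0.21, against 0.63 without it, adjusted p = 0.732 by limma).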
